A study of Mus musculus with 48 samples.

Results

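The genes described here are 10 components of the circadian clock, measured by RNA sequencing in whole B16-D5 tumors. They are *Dbp*, *Tef*, *Per1*, *Per2*, *Per3*, *Nr1d1*, *Nr1d2*, *Arntl*, *Clock* and *Cry1*, and they were taken by name from the 55450 genes of the deposited count table. B16-D5 is a mouse melanoma line, and its cells were placed under the flank skin 8 days before the start of therapy, in C57BL/6J mice or in iNOS knockout mice that had arrived at 4 weeks of age and been housed for 2 weeks. The first experiment was a time course in wild-type (WT) mice with 30 tumors. It held 3 untreated tumors at 0 h and then, at 6 h, day 1 and day 3, 3 tumors each from mice left untreated, given control IgG, or given an antibody against PD-1. Antibodies were given at 250 µg in 200 µL of PBS on a schedule of days 0 and 3, of which tumors taken at 6 h and day 1 came before the later dose. Whether day 3 tumors were taken before or after it is not given in the sources used here. The second experiment held 18 tumors, 3 for each of the same 3 arms in WT mice and in mice labelled iNOS KO. Their titles give no time, and day 7 is taken from a figure legend of the study. All tumors of both experiments thus came from the same implanted line, and no tumor-free tissue was among them. Tumors were assigned by the sample titles, which are also the headers of the count table. Other label fields differ from the titles: in the time course the treatment field differs for 18 tumors and the time field for 19, and in the second experiment the treatment field differs for 16 of the 18 tumors and the genotype field reads WT for the 9 tumors titled KO. The time of day at which tumors were taken is not given in the sources used here.

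The mammalian clock is a feedback loop of transcription. CLOCK and BMAL1, the product of *Arntl*, bind E-box sequences and switch on the *Per* and *Cry* genes, whose proteins return to the nucleus and inhibit that pair, and a second loop runs through REV-ERBα and REV-ERBβ (*Nr1d1*, *Nr1d2*), which repress *Arntl* through sites they share with the ROR receptors. DBP and TEF are proline- and acid-rich (PAR) leucine zipper activators that bind D-box sequences and carry the rhythm to output genes. In most mouse tissues *Arntl* transcript peaks roughly opposite in phase to *Dbp*, and tumors vary in how far such rhythms are kept.

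In the deposited annotation (GENCODE vM21, mouse build mm10, which has the coordinates of GRCm38), *Dbp* lies at chr7:45705088-45710203 and *Tef* at chr15:81802421-81826863, both on the plus strand. *Per1* lies at chr11:69095217-69109960 on the plus strand, *Per2* at chr1:91415982-91459324 and *Per3* at chr4:151003652-151044665 on the minus strand. *Nr1d1* lies at chr11:98767932-98775333 and *Nr1d2* at chr14:18204054-18239127, both on the minus strand. *Arntl* lies at chr7:113207465-113314126 on the plus strand, *Clock* at chr5:76209868-76304792 and *Cry1* at chr10:85131700-85185064 on the minus strand. The ends of 2 of these genes run into protein-coding genes on the other strand, *Dbp* into *Sphk2* over 737 bases and *Nr1d1* into *Thra* over 1075 bases, and whether counting used the strand is not given in the sources used here. *Per3* shares 41014 bases, its whole length, with *Camta1*, a protein-coding gene annotated on the same strand. Strand cannot separate these genes, and how reads there were assigned is likewise not given.

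RefSeq promoter windows (build GRCm38.p6, 250 bases before to 50 bases after a transcript start) were found for 9 of the 10 genes, 14 windows in all. Each was searched on both strands for the E-box CACGTG, the D-box TTATGTAA and the ROR half-site AGGTCA, motifs that do not overlap in these windows. The E-box was in 4 of the 14 windows, 1 of *Per1*, that of *Cry1* and both of *Tef*, against 7.15% of all 32851 windows. The D-box occurred in 1 of the 14 windows, that of *Per3*, at 205 and 158 bases before the start, against 0.938% of all windows. The half-site was in 4 of the 14 windows, 1 each of *Arntl*, *Clock*, *Nr1d2* and *Per1*, against 16.3% of all windows. A match describes letters in a window and not a bound site. The windows of *Per1* and *Tef* are shown for the E-box, that of *Per3* for its paired D-boxes, that of *Arntl* for the half-site 32 bases after its start, that of *Cry1* for an E-box close to the start, and that of *Dbp* because it is the member with the clearest difference between times. Capitals mark the motif matches, and each sequence reads 5′ to 3′ on the strand of its gene.
Per1, chr11:69098699-69098998, plus strand: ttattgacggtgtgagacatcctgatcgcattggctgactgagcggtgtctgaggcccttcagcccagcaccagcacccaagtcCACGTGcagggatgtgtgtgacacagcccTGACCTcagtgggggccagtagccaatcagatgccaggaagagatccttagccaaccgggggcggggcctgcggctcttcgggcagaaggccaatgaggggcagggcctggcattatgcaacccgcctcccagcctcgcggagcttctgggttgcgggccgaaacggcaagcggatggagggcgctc
Tef, chr15:81802423-81802722, plus strand: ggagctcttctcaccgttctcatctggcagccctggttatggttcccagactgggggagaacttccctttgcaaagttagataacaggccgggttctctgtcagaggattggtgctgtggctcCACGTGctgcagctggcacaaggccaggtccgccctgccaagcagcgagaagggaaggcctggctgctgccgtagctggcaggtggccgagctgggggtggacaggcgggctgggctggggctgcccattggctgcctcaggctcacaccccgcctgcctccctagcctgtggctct
Per3, chr4:151044616-151044915, minus strand: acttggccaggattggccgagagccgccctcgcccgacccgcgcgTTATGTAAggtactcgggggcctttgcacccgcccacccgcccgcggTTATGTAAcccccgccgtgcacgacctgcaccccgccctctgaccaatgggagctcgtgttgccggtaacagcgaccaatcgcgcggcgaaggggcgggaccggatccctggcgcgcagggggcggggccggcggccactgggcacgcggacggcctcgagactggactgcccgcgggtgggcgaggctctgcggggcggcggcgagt
Cry1, chr10:85185005-85185304, minus strand: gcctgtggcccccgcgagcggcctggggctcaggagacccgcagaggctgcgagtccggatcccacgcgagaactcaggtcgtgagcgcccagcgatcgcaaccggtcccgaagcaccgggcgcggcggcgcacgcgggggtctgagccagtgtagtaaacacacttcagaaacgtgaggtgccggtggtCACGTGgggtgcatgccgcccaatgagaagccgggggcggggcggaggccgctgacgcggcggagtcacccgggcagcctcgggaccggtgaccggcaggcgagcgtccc
Arntl, chr7:113207261-113207560, plus strand: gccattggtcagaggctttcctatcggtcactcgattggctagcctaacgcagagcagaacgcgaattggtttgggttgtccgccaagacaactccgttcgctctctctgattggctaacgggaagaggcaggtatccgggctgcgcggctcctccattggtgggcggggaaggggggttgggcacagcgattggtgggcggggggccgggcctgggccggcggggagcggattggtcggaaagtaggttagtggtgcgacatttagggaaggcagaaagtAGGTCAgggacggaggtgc
Dbp, chr7:45704997-45705296, plus strand: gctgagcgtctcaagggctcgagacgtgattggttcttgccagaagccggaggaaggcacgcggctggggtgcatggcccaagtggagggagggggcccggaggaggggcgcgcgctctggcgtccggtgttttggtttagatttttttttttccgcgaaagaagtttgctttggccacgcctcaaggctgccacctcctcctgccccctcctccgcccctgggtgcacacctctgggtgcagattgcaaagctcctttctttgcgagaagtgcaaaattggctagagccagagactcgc

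Libraries held 25574203 to 47687872 counts on genes in the time course and 11625862 to 40959309 in the second experiment, so 3 counts corresponded to at most 0.197 counts per 1000000 (CPM), well below the level of every member. The tumor label held, with 8 melanocyte lineage genes summing to between 9396 and 20659 CPM in each tumor of the time course. At 0 h, replicate 3 stood apart with summed CPM of 5336 for 9 keratinocyte genes, 7528 for 10 skeletal muscle genes and 504 for 7 adipocyte genes, while replicates 1 and 2 had 22.2 and 374 CPM of the keratinocyte genes. In the second experiment 3 libraries, WT anti-PD-1 replicates 3 and 4 and KO untreated replicate 1, had 2828, 1172 and 870 CPM over odorant, taste and vomeronasal receptor genes that tumors should hardly express, against at most 234 CPM in the others. All values below are CPM with TMM scaling within an experiment. Where levels of different genes are compared they are divided by exon length in kb. A gene was called where the edgeR quasi-likelihood test gave a Benjamini-Hochberg adjusted p under 0.05 over all genes tested, 26848 in the time course. In whole tumors, fewer cells of a type and less transcript per cell cannot be told apart.

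All 10 genes were detected in every tumor. Per kb of exon, *Per1*, a repressor of the loop that also responds quickly to stimuli, was the highest in the time course with a mean level of 23.7 CPM per kb over 30 tumors. *Nr1d1* followed at 18.6, *Clock* at 8.67 and *Tef* at 7.99 CPM per kb. The lower group held *Nr1d2* at 4.79, *Dbp* at 3.46, *Cry1* at 2.87 and *Arntl* at 2.66 CPM per kb. *Per3* at 1.08 and *Per2* at 0.841 CPM per kb were the lowest. At day 7 the order was the same but for *Tef* and *Clock*, at 8.87 and 8.64 CPM per kb. The neighbours *Clock* and *Tef*, and likewise *Cry1* and *Arntl* (2.87 and 2.81 CPM per kb at day 7), did not differ beyond the spread between tumors. The spread among the 3 tumors of a condition was smallest for *Clock*, with a median coefficient of variation of 10.8% over the 16 conditions, and largest for *Per2* and *Nr1d1*, at 33.4% and 32.3%.

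*Dbp* was the member with a called difference. At 0 h its level was 3.90, 7.57 and 3.61 CPM in the 3 untreated tumors. At 6 h it was 9.79, 8.80 and 10.2 CPM in untreated tumors, 13.4, 20.1 and 4.95 CPM with IgG and 8.23, 13.99 and 13.2 CPM with anti-PD-1, so that a single tumor, IgG replicate 6, fell within the range at 0 h. At day 1 it was 3.67, 3.27 and 6.47 CPM untreated, 9.21, 6.11 and 9.33 CPM with IgG and 9.48, 10.5 and 10.1 CPM with anti-PD-1. Untreated tumors at day 1 were thus at or just below the range of 0 h, and anti-PD-1 tumors were all above it. At day 3 *Dbp* was 12.4, 13.3 and 14.3 CPM untreated, 13.7, 19.4 and 17.6 CPM with IgG and 8.69, 15.99 and 9.87 CPM with anti-PD-1, all 9 tumors above all 3 at 0 h.

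The first question was how each later time differed from 0 h. With the 3 arms averaged, *Dbp* rose 2.73-fold from 0 h to day 3, from 5.03 ± 2.21 CPM (SD, n = 3) to 13.9 ± 3.43 CPM (SD, n = 9), a log2 fold change of 1.45 (SE 0.320, edgeR adjusted p = 0.0173). It was the only one of the 10 genes called, and 449 of 26848 genes (1.67%) were called in that comparison, 2 of them higher (0.00745%), *Dbp* and *Etv5*. At 6 h the log2 fold change of *Dbp* was 1.17 (SE 0.314, adjusted p = 0.113), a difference that passed with DESeq2 (adjusted p = 0.0194, with 1.36% of genes called) and without 0 h replicate 2 (adjusted p = 0.0393, with 0.642% of genes called), and at day 1 it was 0.51 (SE 0.302, adjusted p = 0.578). In untreated tumors alone it was 0.94 (SE 0.361, adjusted p = 0.692) at 6 h and 1.41 (SE 0.364, adjusted p = 0.624) at day 3, where DESeq2 gave an adjusted p of 0.0304 and called 203 of 19612 genes. DESeq2 also called *Dbp* with the 3 arms averaged at day 3 (2.5% of genes) and no member at day 1 (0.899%). The averaged rise at day 1 was not seen in untreated tumors. Their mean *Dbp* was 4.47 CPM, below the 5.03 CPM at 0 h but within the spread between tumors. The day 1 means were 8.21 CPM with IgG and 10.01 CPM with anti-PD-1. All tumors at 0 h were untreated, so a difference from 0 h with the arms averaged cannot separate time from antibody injection. The day 3 call was lost without 0 h replicate 1 (log2 fold change 1.29, adjusted p = 0.0616, with 2.86% of genes called), without 0 h replicate 3 (1.29, adjusted p = 1.0) and without untreated day 3 replicate 2 (1.45, adjusted p = 0.0504), and it was also lost with the replicate number as a block (1.43, adjusted p = 0.241) and with the muscle, keratinocyte and adipocyte levels as covariates (1.42, adjusted p = 1.0). At 0 h, where *Dbp* was at 3.90, 7.57 and 3.61 CPM in replicates 1, 2 and 3, the keratinocyte sums were 22.2, 374 and 5336 CPM and the muscle sums 1036, 4185 and 7528 CPM. The part of these tissues in the difference was not tested beyond those covariates.

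**Figure D1:**
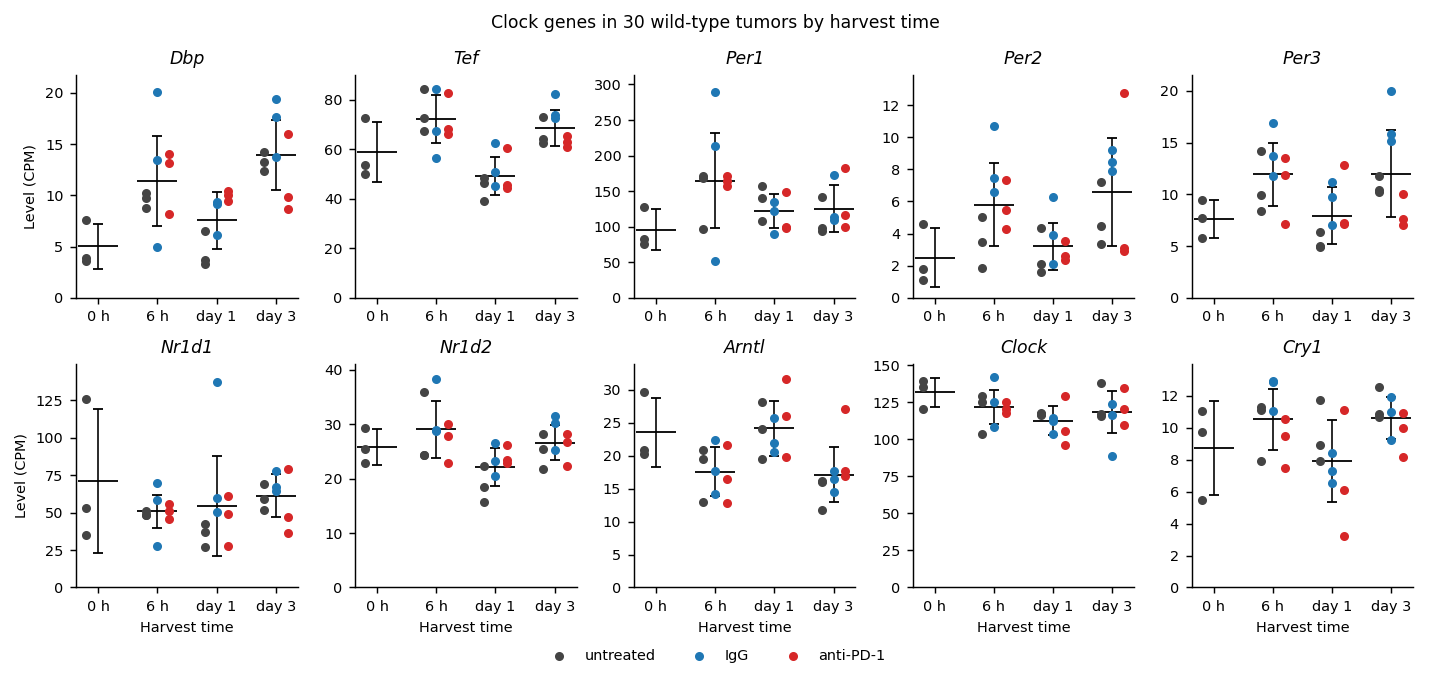
Levels of the 10 clock genes in CPM (vertical axes, from 0) by harvest time (horizontal axes) in 30 WT tumors. Points are single tumors coloured by arm, and horizontal bars with whiskers are the mean and SD over all tumors of a time (n = 3 at 0 h and 9 at later times). *Dbp* at day 3 lies wholly above 0 h, and several genes show lower points at day 1 than at 6 h and day 3, with *Arntl* the other way.

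The remaining members showed no called difference from 0 h. Of the 10 members 6 were at an unadjusted p under 0.05 at 6 h (against 9.14% of all genes tested), *Dbp*, *Per1*, *Per2*, *Per3* and *Tef* higher and *Arntl* lower, none of them called. At day 3 there were 4 (against 9.58% of all genes), *Dbp*, *Per2* and *Per3* higher and *Arntl* lower. At day 1 there were none with the 3 arms averaged, against 9.58% of all genes. These 3 comparisons share the same 3 tumors at 0 h, so their values are not independent. In the comparison at 6 h, 10 genes were called (0.0372%), none of them a member, and at day 1 no gene was (0%), with 2571 at an unadjusted p under 0.05. With untreated tumors alone against 0 h, no gene was called at any of the times by edgeR (0% each), with 1785 to 1795 of 26848 genes at an unadjusted p under 0.05, and DESeq2 called 1 member, *Dbp* at day 3. Of the members, 1 was at an unadjusted p under 0.05 in untreated tumors at 6 h, higher than at 0 h. At day 1 there were 3 in untreated tumors, all lower, and at day 3 there were 2, 1 higher and 1 lower.

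*Per2*, a core repressor of the loop, was at 1.12, 1.77 and 4.60 CPM at 0 h. It ranged from 1.83 to 10.7 CPM at 6 h with a median of 5.49 CPM, and from 2.92 to 12.8 CPM at day 3 with a median of 7.24 CPM. The log2 fold change was 1.13 at 6 h (SE 0.468, adjusted p = 0.419) and 1.37 at day 3 (SE 0.475, adjusted p = 0.201). The groups overlapped at both times. *Per3*, a *Per* gene with a smaller part in the loop, was at 7.73, 5.78 and 9.46 CPM at 0 h and had log2 fold changes of 0.63 at 6 h (SE 0.234, adjusted p = 0.322) and 0.58 at day 3 (SE 0.233, adjusted p = 0.341). *Per1* was at 75.9, 83.2 and 128.4 CPM at 0 h against 51.7 to 290.02 CPM at 6 h, where the lowest and the highest tumor were both from the IgG arm, with a log2 fold change of 0.78 (SE 0.337, adjusted p = 0.471).

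*Arntl*, the positive arm of the loop, was at 20.9, 20.2 and 29.6 CPM at 0 h. Its level lay between 12.8 and 22.3 CPM at 6 h and between 11.8 and 27.03 CPM at day 3. It differed from 0 h by a log2 fold change of -0.42 at 6 h (SE 0.193, adjusted p = 0.502) and -0.48 at day 3 (SE 0.192, adjusted p = 0.353). Its partner *Clock*, the steadiest of the 10 genes, was at 140, 135 and 121 CPM at 0 h and had log2 fold changes between -0.23 and -0.11 at the 3 later times. *Nr1d1* was at 35.01, 52.8 and 126 CPM at 0 h, so the 0 h range spanned nearly that of all later tumors, and its log2 fold change of -0.49 at 6 h and -0.22 at day 3 turned positive without 0 h replicate 3 (0.25 and 0.50), the library with the high skin and muscle markers.

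The second question was how the later times differed from each other, where 9 tumors stood on each side. The time of day and the session of each harvest are not given. A difference between times, from 0 h as well, thus cannot be told apart from a difference in these. The p-values measure the spread between tumors and not between harvests. Levels of *Dbp*, *Tef*, *Per2* and *Per3* were lower on average at day 1 than at 6 h and day 3, and that of *Arntl* was higher, without a call in the edgeR fit. From 6 h to day 1, 7 of the 10 members were at an unadjusted p under 0.05, against 16.7% of all genes tested, with *Dbp*, *Tef*, *Per2*, *Per3*, *Nr1d2* and *Cry1* lower and *Arntl* higher at day 1. From day 1 to day 3 it was 7 members against 13.3% of all genes, with *Dbp*, *Tef*, *Per2*, *Per3*, *Nr1d2* and *Cry1* higher and *Arntl* lower at day 3. Both comparisons use the day 1 tumors, so these are not separate observations. Between 6 h and day 3 no member was at an unadjusted p under 0.05, against 4.63% of all genes. No gene passed the adjusted threshold with edgeR in any of these 3 comparisons (0% each), with 4491, 3569 and 1244 genes at an unadjusted p under 0.05 for day 1 against 6 h, day 3 against day 1 and day 3 against 6 h. DESeq2 called 4 members between 6 h and day 1, *Tef*, *Per3*, *Nr1d2* and *Arntl*, where it called 892 genes, 7.42% of those to which it gave an adjusted p. It called 2 between day 1 and day 3, *Dbp* and *Tef*, where it called 55 genes (0.235%).

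*Tef* came closest to the threshold. It was at 72.5, 67.2 and 84.5 CPM in untreated tumors at 6 h, 84.2, 67.3 and 56.6 CPM with IgG and 82.6, 66.3 and 68.1 CPM with anti-PD-1. At day 1 it was at 39.1, 48.5 and 46.2 CPM untreated, 45.2, 51.0 and 62.6 CPM with IgG and 45.7, 60.7 and 44.3 CPM with anti-PD-1. In the untreated and anti-PD-1 arms all 3 tumors at day 1 were below all 3 at 6 h, and in the IgG arm the groups overlapped. At day 3 *Tef* lay between 61.1 and 82.2 CPM, a range that overlaps day 1 by 1 tumor, IgG replicate 6 at 62.6 CPM. The log2 fold change from 6 h to day 1 was -0.55 (SE 0.0987, adjusted p = 0.0719 with edgeR and 0.000271 with DESeq2), from 72.1 ± 9.66 to 49.3 ± 7.74 CPM (SD, n = 9 each), and from day 1 to day 3 it was 0.48 (SE 0.0986, adjusted p = 0.357 with edgeR and 0.00496 with DESeq2). Leaving out the IgG tumor replicate 6 at 6 h or the anti-PD-1 tumor replicate 4 at day 1 brought the first below the threshold (adjusted p = 0.0200 and 0.0400, with 0.00337% and 0.0656% of genes called).

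*Dbp*, the other PAR zipper gene among the members, had a log2 fold change of -0.66 from 6 h to day 1 (SE 0.207, adjusted p = 0.190) and 0.94 from day 1 to day 3 (SE 0.208, adjusted p = 0.357 with edgeR and 0.0372 with DESeq2). Its mean was 11.4 ± 4.36 CPM at 6 h and 7.56 ± 2.76 CPM at day 1 (SD, n = 9 each), and the values given above overlap between those times in the IgG and anti-PD-1 arms. *Per2* had log2 fold changes of -0.79 (SE 0.310, adjusted p = 0.217) and 1.03 (SE 0.311, adjusted p = 0.357) over the same steps, and *Per3* of -0.62 (SE 0.160, adjusted p = 0.190) and 0.57 (SE 0.160, adjusted p = 0.357). *Per3* was at 6.33, 4.89 and 5.01 CPM in the untreated day 1 tumors, all below the 8.37 to 14.2 CPM of untreated tumors at 6 h and the 10.2 to 11.8 CPM at day 3.

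*Nr1d2*, which encodes REV-ERBβ, went from a median of 28.8 CPM at 6 h (22.9 to 38.3 CPM) to 22.8 CPM at day 1 (15.6 to 26.6 CPM) and 26.8 CPM at day 3 (21.8 to 31.4 CPM). The log2 fold changes were -0.40 (SE 0.107, adjusted p = 0.190) and 0.27 (SE 0.107, adjusted p = 0.357). *Nr1d1*, its paralog, had log2 fold changes of 0.01 (SE 0.243) and 0.25 (SE 0.243), both with adjusted p of at least 0.650. *Cry1*, which encodes a strong repressor of the CLOCK and BMAL1 pair, had log2 fold changes of -0.41 (SE 0.175, adjusted p = 0.240) and 0.43 (SE 0.175, adjusted p = 0.357), and its day 1 levels ran from 3.22 to 11.7 CPM.

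*Arntl* ran opposite to these genes. At 6 h it was at 20.9, 19.6 and 12.98 CPM untreated, 14.1, 17.7 and 22.3 CPM with IgG and 12.8, 21.6 and 16.4 CPM with anti-PD-1. At day 1 it was at 28.1, 19.5 and 24.1 CPM untreated, 25.7, 20.5 and 21.9 CPM with IgG and 26.1, 19.8 and 31.6 CPM with anti-PD-1. At day 3 it was at 16.1, 16.1 and 11.8 CPM untreated, 14.4, 16.4 and 17.6 CPM with IgG and 17.7, 27.03 and 16.98 CPM with anti-PD-1. Of the day 3 tumors only anti-PD-1 replicate 4 reached the day 1 range. The log2 fold changes were 0.46 (SE 0.140, adjusted p = 0.190 with edgeR and 0.0427 with DESeq2) from 6 h to day 1 and -0.51 (SE 0.140, adjusted p = 0.357) from day 1 to day 3. The log2 ratio of *Dbp* to *Arntl* CPM within a tumor, a measure chosen after the values were seen, had its median at -2.42 at 0 h (-3.04 to -1.42), -0.63 at 6 h (-2.17 to 0.19), -1.65 at day 1 (-2.94 to -0.92) and -0.28 at day 3 (-1.03 to 0.28).

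**Figure D2:**
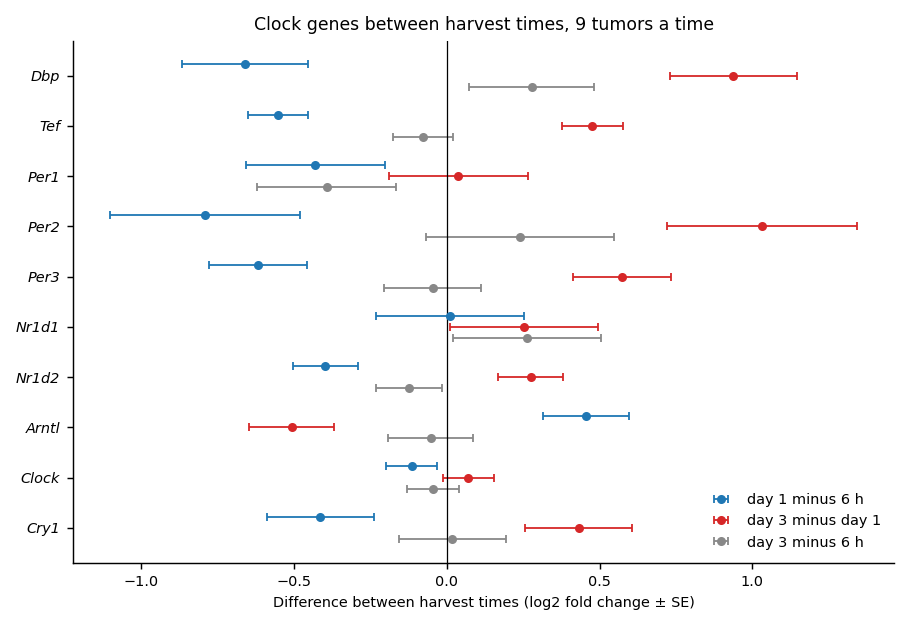
Differences of the 10 clock genes (vertical axis) between harvest times, as log2 fold changes (horizontal axis) with the 3 arms averaged; whiskers are the SE of the edgeR fit. The day 1 minus 6 h and day 3 minus day 1 differences lie on opposite sides of 0 for *Dbp*, *Tef*, *Per2*, *Per3*, *Nr1d2*, *Arntl* and *Cry1*, and those of day 3 minus 6 h are nearer to 0 for these genes.

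The arms hold different tumors, so the step from 6 h to day 1 was also read in each on its own. In untreated tumors 9 of the 10 members were lower at day 1 and *Arntl* was higher, in anti-PD-1 tumors 9 were lower and *Arntl* higher, and in IgG tumors 8 were lower with *Arntl* and *Nr1d1* higher. The median log2 fold change of the members was -0.41, -0.25 and -0.52 in the untreated, anti-PD-1 and IgG arms, beside 0.02, 0.04 and -0.00261 over all genes tested. None was called in any arm by edgeR (0% of genes each), while DESeq2 called *Tef* in the untreated arm (adjusted p = 0.0195, with 0.0685% of genes called). The log2 fold change of *Tef* was -0.74 untreated (SE 0.171), -0.39 with IgG (SE 0.171) and -0.53 with anti-PD-1 (SE 0.171). That of *Per3* was -1.002 untreated (SE 0.279), -0.60 with IgG (SE 0.276) and -0.26 with anti-PD-1 (SE 0.276). That of *Arntl* was 0.42 (SE 0.242), 0.33 (SE 0.242) and 0.61 (SE 0.243) in the same order. The arms were not shown to differ in this step, with no gene called in the interaction test (0%; 754 genes at an unadjusted p under 0.05) and unadjusted p of 0.169 or more for every member.

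Marker genes of other cells and of dividing cells differed in level between the same times, and their part in the result was not tested. From 6 h to day 1, all 6 macrophage genes, all 5 leukocyte genes and all 6 fibroblast genes were higher at day 1, with medians of 0.86, 0.87 and 0.96 on the log2 scale, of which 5, 4 and 4 were at an unadjusted p under 0.05 and none was called. All 8 melanocyte genes and all 6 proliferation genes were lower at day 1, with medians of -0.31 and -0.43, 4 and 6 of them at an unadjusted p under 0.05. All 7 adipocyte genes were higher at day 1 as well, with a median of 2.02, 5 of them at an unadjusted p under 0.05, and their summed level had medians of 43.7, 156 and 75.5 CPM at 6 h, day 1 and day 3. Of 10 immediate early genes 4 were at an unadjusted p under 0.05, all higher at day 1, with a median of 0.30, while none of the muscle, keratinocyte and endothelial genes was, with medians of -0.52, -1.84 and 0.50. From day 1 to day 3 the medians were -0.54 for adipocyte genes, -0.59, -0.63 and -0.73 for macrophage, leukocyte and fibroblast genes and 0.38 and 0.28 for melanocyte and proliferation genes. The members' medians over those steps were -0.42 and 0.35, beside 0.05 and -0.06 over all genes. The step from 6 h to day 1 kept its sign for *Dbp*, *Tef*, *Per2*, *Per3*, *Nr1d2*, *Arntl* and *Cry1* under every alternative listed in the closing section, the covariates for muscle, keratinocyte and adipocyte genes included.

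Of 22 further clock and output genes, all of them tested, *Npas2* was called, at 6 h and at day 3 against 0 h, where 0.0372% and 1.67% of all genes were called. NPAS2 is the paralog of CLOCK and can take its place beside BMAL1. It was at 0.826, 3.92 and 13.5 CPM at 0 h, between 0.244 and 1.27 CPM at 6 h, between 1.45 and 7.07 CPM at day 1 and between 0.0751 and 1.32 CPM at day 3. All 9 tumors at day 1 were above all 9 at 6 h and all 9 at day 3. *Npas2* fell from 0 h to 6 h (log2 fold change -3.37, SE 0.591, adjusted p = 0.0327) and from 0 h to day 3 (-3.15, SE 0.589, adjusted p = 0.00888), and between the later times it was 2.76 from 6 h to day 1 (SE 0.492, adjusted p = 0.0719) and -2.55 from day 1 to day 3 (SE 0.486, adjusted p = 0.357 with edgeR and 7.1e-05 with DESeq2). Both calls from 0 h were easily lost. Without 0 h replicate 3 the differences were -1.98 and -1.77 with adjusted p of 1.0. The call at 6 h was also lost without any 1 of the 9 tumors at 6 h (adjusted p from 0.0636 to 0.119), with the replicate block (adjusted p = 0.901), with only the groups compared (adjusted p = 0.345) and with the tissue covariates (adjusted p = 1.0). The call at day 3 was also lost with the block (adjusted p = 0.241), with only the groups compared (adjusted p = 0.0695) and with the tissue covariates (adjusted p = 1.0). The keratinocyte sums of the 3 tumors at 0 h, in the order of the *Npas2* levels above, were 22.2, 374 and 5336 CPM. At day 1 the keratinocyte sum had a median of 8.92 CPM (4.52 to 903 CPM) against 20.1 CPM at 6 h (5.87 to 286 CPM) and 4.70 CPM at day 3 (2.45 to 9.62 CPM). The part of these cells in the *Npas2* levels was not tested beyond the tissue covariates. From 6 h to day 1 and from day 1 to day 3, *Npas2* followed *Arntl* rather than *Dbp* in direction. These steps share the day 1 tumors.

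*Hlf*, the third PAR zipper gene, was at 4.01, 4.30 and 17.8 CPM at 0 h, with a median of 4.10 CPM at 6 h, 2.37 CPM at day 1 and 4.54 CPM at day 3. Its log2 fold change was -0.90 from 6 h to day 1 (SE 0.277, adjusted p = 0.190) and 0.83 from day 1 to day 3 (SE 0.277, adjusted p = 0.357), the direction of *Dbp* and *Tef*; it is named here after its values were seen. Of the 22 genes, 5 were at an unadjusted p under 0.05 from 6 h to day 1 (against 16.7% of all genes), 3 higher and 2 lower. From day 1 to day 3 there were 3 (against 13.3%), and between 6 h and day 3 none (against 4.63%). Of 10 glucocorticoid-induced genes, targets of the same hormone receptor that can induce *Per1*, 4 were at an unadjusted p under 0.05 at 6 h against 0 h (9.14% of all genes). At day 1 against 0 h there were 3 (9.58% of all genes), and all of these were lower than at 0 h. At day 3 against 0 h there were 5 (9.58% of all genes), 4 of them lower. *Pdk4* and *Zbtb16* were called, where 1.67% of all genes were (log2 fold changes of -3.84 and -3.04, adjusted p = 0.0194 and 0.0302). Neither was called without 0 h replicate 3 (adjusted p = 1.0 for each) or with the replicate block (adjusted p = 0.346 and 0.737). With the tissue covariates their log2 fold changes were -1.15 and -0.088, and neither was called. *Zbtb16* also lost its call without any 1 of the 9 day 3 tumors (adjusted p from 0.0571 to 0.0898), and *Pdk4* without several of them. Of the same 10 genes none was at an unadjusted p under 0.05 between 6 h and day 1 (against 16.7% of all genes), with a median of 0.25 on the log2 scale. Their summed level had medians of 1079 CPM at 0 h and 1412, 1426 and 1424 CPM at 6 h, day 1 and day 3.

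**Figure D3:**
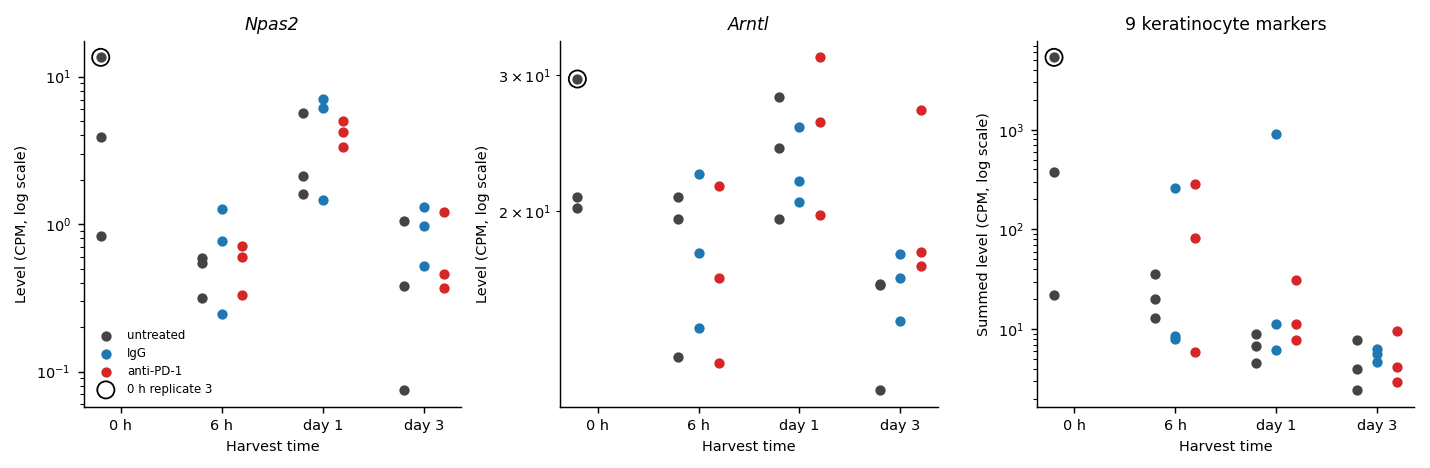
Levels of *Npas2* and *Arntl* and the summed level of 9 keratinocyte genes in each tumor (vertical axes, CPM on a log scale) by harvest time (horizontal axes), coloured by arm, with 0 h replicate 3 circled. *Npas2* at day 1 lies above 6 h and day 3 in every tumor, and at 0 h it is highest in the circled tumor, which also has the highest keratinocyte sum.

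Across the 30 tumors of the time course, the Pearson correlation of log2 CPM between *Tef* and *Arntl* was -0.77, and it was 0.59 between *Dbp* and *Per2*. These describe tumors that share harvest times and arms. Outside the members, the genes most like *Arntl* among 15109 genes with a mean of at least 1 CPM were *Phf21a* (0.82), *Tanc2* (0.77), *Creb3l1* (0.77), *Jak1* (0.77) and *Ggt5* (0.76). Those most like *Dbp* were *9030612E09Rik* (0.60), *2810032G03Rik* (0.59), *Sdhaf4*, *Tmem203* and *Map2k5* (0.55 each). None of the 22 further clock and output genes was among these.

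Whether antibody treatment moved the clock genes at a given time was the next comparison. No member, and no gene, was called for IgG against untreated or anti-PD-1 against IgG at 6 h, day 1 or day 3 (0% each), with 544 to 1422 genes at an unadjusted p under 0.05 in each, and DESeq2 called no member, with 0.00203% to 0.126% of genes called. The lowest unadjusted p was for *Per3* in anti-PD-1 against IgG tumors at day 3 (adjusted p = 1.0 in the edgeR fit, log2 fold change -1.05, SE 0.278), with 7.01, 10.04 and 7.59 CPM against 15.2, 20.0017 and 15.8 CPM, groups that do not overlap. Untreated tumors at that time had 11.8, 10.2 and 10.4 CPM of *Per3*, between both. At 6 h and at day 1 the anti-PD-1 and IgG ranges of *Per3* overlapped. No test compared anti-PD-1 with untreated tumors at these times. At day 1 *Dbp* was at 9.48 to 10.5 CPM with anti-PD-1 against 3.27 to 6.47 CPM untreated, without overlap. At 6 h and at day 3 these ranges of *Dbp* overlapped, and the gene is given here after its values were seen.

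At day 7 the question was whether the genes differed by host genotype or treatment. *Nos2*, the gene for iNOS, was at 1.40 to 7.28 CPM in the 9 tumors titled WT and 1.15 to 5.92 CPM in the 9 titled KO, so its level did not separate the labels. The knockout is of the host mice while the implanted line was the same in all tumors, and counts from host and implanted cells cannot be told apart here. The count covers the whole gene, and the extent of the deletion is not given in the sources used here. With the 3 arms averaged, no member was called between tumors labelled KO and WT, where 2 of 30837 genes were (0.00649%) and 3703 were at an unadjusted p under 0.05. The median over all genes was -0.19 on the log2 scale and that of the members -0.12. The member with the lowest p was *Per2*, at 4.07 ± 1.37 CPM in KO and 6.03 ± 3.36 CPM in WT (SD, n = 9 each), a log2 fold change of -0.52 (SE 0.236, adjusted p = 0.387). Its highest value, 13.05 CPM, was in WT anti-PD-1 replicate 3, the library with 2828 CPM over the receptor genes. *Tef* was at 75.4 ± 13.5 CPM in KO and 64.2 ± 9.99 CPM in WT (SD, n = 9 each), a log2 fold change of 0.23 (SE 0.113, adjusted p = 0.416).

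Within the arms at day 7, no member was called between KO and WT in untreated tumors (183 genes called, 0.593%), with IgG or with anti-PD-1 (0% each), nor between anti-PD-1 and IgG in either genotype (0% each). Counts of genes at an unadjusted p under 0.05 for KO against WT were 5215 untreated, 1901 with IgG and 10491 with anti-PD-1. The medians over all genes were 0.49, -0.14 and -0.91 on the log2 scale. For anti-PD-1 against IgG there were 5149 such genes in WT (median 0.68) and 588 in KO (median 0). DESeq2 called 4.21%, 0.0751% and 12.2% of genes for KO against WT in the same order of arms. In untreated tumors *Per1* was at 71.7, 82.7 and 87.2 CPM in KO and 87.5, 143 and 124 CPM in WT, without overlap, with a log2 fold change of -0.55 (SE 0.254, adjusted p = 0.290). *Clock* was at 83.1, 101 and 113 CPM in KO and 128.2, 138 and 122 CPM in WT, with a log2 fold change of -0.39 (SE 0.187, adjusted p = 0.290). The lowest value of both genes came from KO untreated replicate 1, the library with 870 CPM over the receptor genes. Its part in these differences was not tested beyond the alternatives listed in the closing section. In WT tumors under anti-PD-1, the 2 libraries with the high receptor background had the lowest *Per1* of the arm, 60.1 and 76.9996 CPM, while replicate 2 had 156 CPM. *Nr1d1* did the same, at 20.3 and 32.02 CPM against 80.9 CPM. The part of the background in these values was not tested beyond the receptor covariate and the fit without the 3 libraries. Without WT anti-PD-1 replicate 2, 3 members (*Clock*, *Per1* and *Nr1d1*) were called between anti-PD-1 and IgG in WT, in a comparison in which 2366 genes (6.21%) were then called and both remaining anti-PD-1 libraries had that background.

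**Figure D4:**
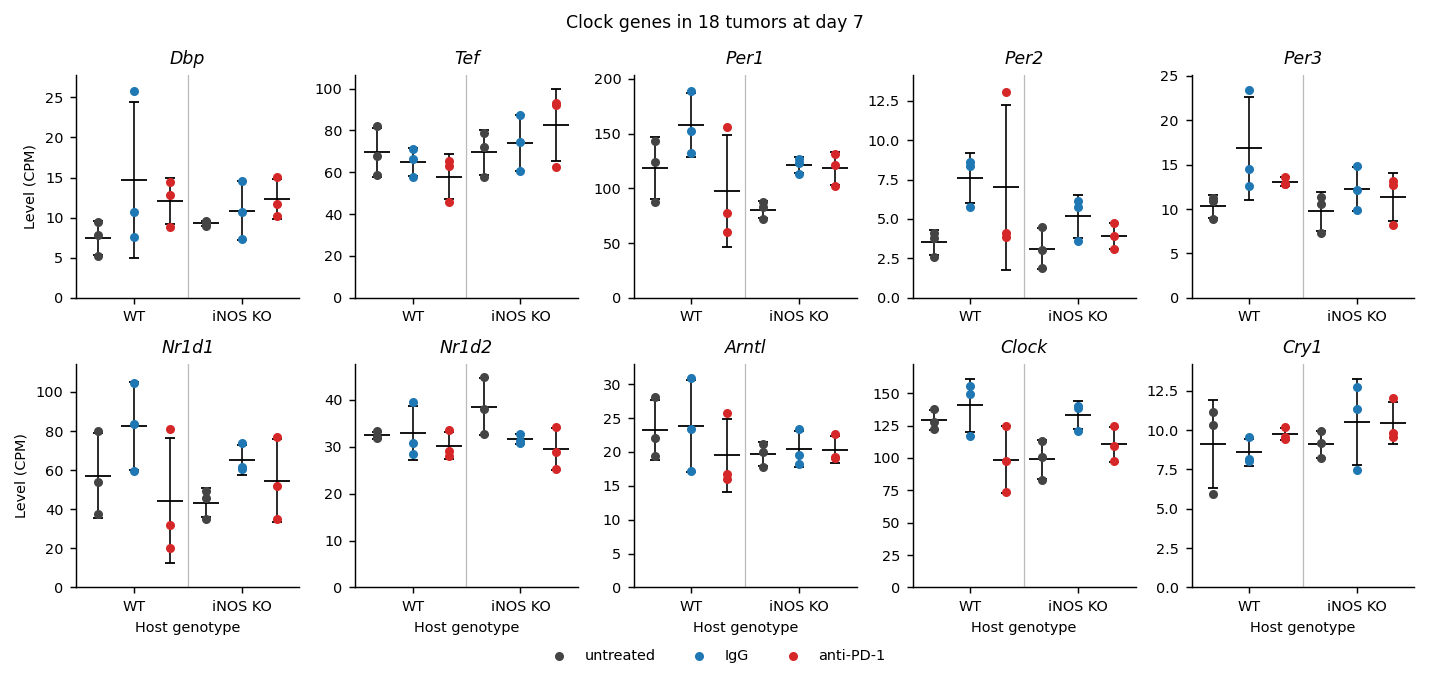
Levels of the 10 clock genes in CPM (vertical axes, from 0) at day 7 in 9 tumors labelled WT and 9 labelled iNOS KO (horizontal axes), with 3 tumors for each arm; points are single tumors and bars with whiskers the mean and SD of a condition. The conditions overlap for most genes, and the WT anti-PD-1 arm has 1 high and 2 low tumors for *Per1* and *Nr1d1*.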

How the data were processed

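RNA from 48 whole tumors was sequenced as strand-specific libraries. Per the labels and the study's methods, the authors removed adapters with cutadapt 1.8.1, aligned reads to mm10 with STAR 2.7.7a and estimated gene counts with RSEM 1.3.0 on GENCODE vM21, and the deposited table holds whole-number counts for 55450 genes in 48 samples, with no column left unmapped. The name of the table differs from that tool, and how reads that fit several genes were shared out is not given in the sources used here.

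Each experiment was fitted on its own in edgeR 4.0.16 (R 4.3.3) with TMM scaling, filterByExpr at a minimum count of 10, 1 coefficient per condition and a robust quasi-likelihood fit (two-sided). Benjamini-Hochberg adjustment covered all genes tested, 26848 in the time course and 30837 at day 7, with a threshold of 0.05. Time comparisons averaged the arms with equal weight. CPM used the TMM-scaled totals, and correlations used log2(CPM + 0.5). No comparison was made between the experiments' CPM by a test. Libraries of a condition differed by far more than sampling noise. Nothing in the labels says how animals were caged or batched, so p-values measure the spread between tumors as labelled. Counting depth is given by the range of totals in the report, and the limit of 3 counts covers counting error only.

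The 10 genes, the lists of other clock, output, marker and response genes and the comparisons were chosen with earlier results of these data known. All 10 genes are named, further clock and output genes where called, and *Hlf* and *Etv5* after their values were seen. The alternatives were DESeq2 1.42.0 size factors, no filter on low counts, the DESeq2 Wald test, only the groups compared, a replicate block, a covariate for the receptor gene level, covariates for 3 tissue marker lists (time course), leaving out the 3 libraries with the raised receptor level (day 7), and leaving out each tumor. Promoter windows came from RefSeq.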

Additional observations from a re-analysis of the deposited data

Results flagged for a closer look

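Single tumors stood far from the other 8 of their time or genotype in 5 of 50 groups tested for the 10 genes, by Dixon's ratio above 0.493 for 9 tumors. Chance alone exceeds that limit in about 1 of 20 groups of normally distributed values from 1 population. The groups here pool 3 arms, and the genes of 1 library are not independent, so that rate does not carry over. In the time course, *Nr1d1* was at 137.4 CPM in IgG replicate 6 at day 1, next to 61.2 CPM, and *Arntl* at 27.03 CPM in anti-PD-1 replicate 4 at day 3, next to 17.7 CPM. At day 7, WT IgG replicate 3 was the highest WT tumor for 3 of the genes, with *Dbp* at 25.74 CPM next to 14.4 CPM, *Per3* at 23.37 CPM next to 14.5 CPM and *Nr1d2* at 39.53 CPM next to 33.6 CPM.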

How the results depend on the processing

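Replicate numbers are not stated to pair the tumors. Deviations of same-numbered tumors from their condition means had a median correlation of -0.07 (-0.51 to 0.50) over 65 pairs in the time course. At day 7 it was -0.02 (-0.41 to 0.32) over 36 pairs, and 19 and 7 of the pairs were above 0.1. These correlations cannot decide whether animals were paired. With the replicate block, 0 clock genes were called at day 3 against 0 h in place of 1 (*Dbp*, log2 fold change 1.43, adjusted p = 0.241), and no gene was called at all. With the tissue marker covariates it was also 0, the covariates taking 3 of the residual degrees of freedom. Leaving out a tumor gave 0 to 1 called clock genes at day 3 against 0 h, 0 to 1 at 6 h against 0 h and 0 to 1 at day 1 against 6 h. At day 7 it gave 0 to 2 for KO against WT under anti-PD-1, the 2 without WT anti-PD-1 replicate 2 where 18% of genes were called, and 0 to 3 for anti-PD-1 against IgG in WT, the 3 without the same tumor (6.21% of genes). No filter gave 1 in the latter (1.92% of genes). The DESeq2 Wald test called 1 at 6 h against 0 h (1.36% of all genes), 1 in untreated tumors at day 3 against 0 h (203 of 19612), 4 at day 1 against 6 h (7.42%), 2 at day 3 against day 1 (0.235%) and 1 in untreated tumors at day 1 against 6 h (0.0685%), where edgeR called 0. The cause of these differences was not tested.

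Signs turned in the differences that follow, none of them called. With tissue covariates *Nr1d1* was 0.16, 0.38 and 0.80 at 6 h, day 1 and day 3 against 0 h, in place of -0.49, -0.47 and -0.22, *Per3* -0.017 and *Arntl* -0.12 at day 1 against 0 h, and *Tef* 0.053 at day 3 against 6 h. With the receptor covariate, at day 1 against 0 h, *Per3* was -0.039, *Arntl* -0.071 and *Cry1* 0.022. With the replicate block *Nr1d1* was -0.084 at day 1 against 6 h, *Cry1* -0.023 at day 3 against 6 h and *Per1* -0.078 at day 3 against day 1. DESeq2 size factors and the Wald test gave *Cry1* -0.0011 and -0.0016 at day 3 against 6 h and *Per1* -0.020 in both at day 3 against day 1. With no filter *Dbp* was 0.0097 in KO against WT.

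Leaving out 1 tumor in turn, log2 differences from 0 h ranged at 6 h from -0.83 to 0.25 for *Nr1d1*. At day 1 they ranged from -0.012 to 1.20 for *Per2*, -0.14 to 0.26 for *Per3*, -0.80 to 0.29 for *Nr1d1*, -0.050 to 0.30 for *Arntl* and -0.34 to 0.054 for *Cry1*, and at day 3 from -0.56 to 0.50 for *Nr1d1* and -0.062 to 0.17 for *Nr1d2*. Day 1 against 6 h ranged from -0.15 to 0.13 for *Nr1d1* and day 3 against day 1 from -0.083 to 0.10 for *Per1*. Day 3 against 6 h ranged from -0.10 to 0.39 for *Per2*, -0.11 to 0.059 for *Per3*, -0.12 to 0.026 for *Arntl* and -0.016 to 0.067 for *Cry1*. KO against WT ranged from -0.12 to 0.21 for *Dbp* and -0.27 to 0.13 for *Nr1d1*. Of the named gene differences recomputed, 1199 values with a tumor left out and 621 under other settings kept direction and side of the threshold. With a tumor left out 42 values turned sign, 14 lost a call and 5 gained a call, and under other settings 17, 8 and 12 did. Only *Dbp* at day 3 and *Npas2* at 6 h and day 3, each against 0 h, were called in the main fit. For the other differences, keeping the side of the threshold means only that they stayed uncalled. With 3 tumors at 0 h, differences from 0 h turn on single libraries.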
